A study of Rattus norvegicus with 20 samples.

Results

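Complement and coagulation factors are secreted and cell-bound proteins that act in proteolytic cascades, and in the liver they are known as products of hepatocytes with a smaller set made by resident macrophages. The members described here were the genes whose single symbol on the array platform matched a written pattern of complement components, their regulators and receptors, clotting factors, anticoagulants and fibrinolytic enzymes. The pattern found 39 genes of 14557 with a single symbol, and 38 of them were among the 9481 genes bright enough to be tested. By textbook knowledge of where each mRNA is mainly made, 24 members were classed as hepatocyte-made, 7 as macrophage-made and 8 as made in other or several cell types. The only untested member was Fcnb, a ficolin of the macrophage-made class, which averaged 2.03 and was above the middle of 1 of the 20 arrays. Some names of the pattern, such as the fibrinogen chains Fga and Fgb, plasminogen, C4 and factors B and H, had no probe set named for them alone in the annotation used. They were not analysed here, and the probe set shared by Kng1 and Kng2 was not used.

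Total liver RNA of 20 male Zucker rats, lean controls among them, was hybridised to Affymetrix Rat Gene arrays, with 1 array per rat and 5 rats labelled as biological replicates in each of 4 groups. The groups were rats given rosiglitazone, rats given resveratrol, untreated obese rats kept for 6 weeks on a stock diet, and lean controls fed standard chow, all of them caged singly with free access to food. Rosiglitazone is an insulin-sensitising activator of the nuclear receptor PPARgamma, resveratrol is a plant polyphenol, and obesity in Zucker diabetic fatty (ZDF) rats comes from a defective leptin receptor. The labels give neither the dose nor the body type of the treated rats, and the study treats the animals as diabetic rats given a dietary or drug intervention. Lean and obese rats differed in diet as well as in body type, so these cannot be told apart. The length of the diet is labelled for the obese rats only. In comparisons with treated rats, the drug therefore cannot be told apart from any difference of diet or body type.

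Complement is started by recognition proteins. C1q, built of A, B and C chains, recognises antibody and other ligands, and mannose-binding lectins and ficolins recognise sugars. The cascade runs through C3 and C5 to a pore made of C5b to C9. It is amplified by factor D and properdin in the alternative pathway, and is held back by C4b-binding protein and factor H. Coagulation runs from tissue factor and factor VII through factor X to thrombin, which turns fibrinogen into fibrin. Protein C, protein S, thrombomodulin and tissue factor pathway inhibitor restrain it, and the plasminogen activators dissolve the clot.

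Values are log2 expression, on which a difference of 1 is a doubling of signal, and array medians lay between 2.36 and 2.53. Levels of different genes come from different probes and were not set against each other. Where linear levels of several genes were summed, the sums were compared between livers only, and brighter genes weigh more in them. The 24 hepatocyte-made members averaged between 6.48 and 11.29 over the 20 livers and were above the array's middle in every liver. F13a1, F8, Thbd and Fcnb lay close to the array medians, where changes are compressed, with means of 2.60, 2.59, 2.35 and 2.03. The median SD between rats of a group was 0.159 for hepatocyte-made members, 0.243 for macrophage-made members and 0.259 for the others. On the first principal component of all tested genes, lean control rat 3 lay at 0.81, among the obese rats, while the other 4 lean rats lay between −27.9 and −10.2.

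Of the 39 members, 28 had a promoter in the RefSeq table of rat assembly GRCr8, 250 bases before to 50 bases after the start of the gene. The promoters of 7 of the 8 members that were higher with rosiglitazone than in obese livers are shown (C1qc had no entry), because the results below turn on these genes. They are 3 macrophage-made members (C1qa, C1qb and Fcna), 3 hepatocyte-made members (C4bpa, C4bpb and C5) and Cfd, of the class of other or several sources, whose window holds no match. Capitals mark matches, on either strand, to TTCNNNGAA (the STAT motif), GTTAAT (an HNF1 core) or GAGGAA (a PU.1 core). HNF1 is a hepatocyte transcription factor and PU.1 a myeloid one.
C1qa (chr5:154419884-154420183, minus strand): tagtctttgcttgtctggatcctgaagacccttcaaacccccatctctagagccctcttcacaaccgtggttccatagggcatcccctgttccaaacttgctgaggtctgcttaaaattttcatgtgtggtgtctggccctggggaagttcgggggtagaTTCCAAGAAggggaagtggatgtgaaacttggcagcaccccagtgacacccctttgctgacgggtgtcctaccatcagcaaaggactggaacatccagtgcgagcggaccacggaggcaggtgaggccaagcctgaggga
C1qb (chr5:154407778-154408077, minus strand): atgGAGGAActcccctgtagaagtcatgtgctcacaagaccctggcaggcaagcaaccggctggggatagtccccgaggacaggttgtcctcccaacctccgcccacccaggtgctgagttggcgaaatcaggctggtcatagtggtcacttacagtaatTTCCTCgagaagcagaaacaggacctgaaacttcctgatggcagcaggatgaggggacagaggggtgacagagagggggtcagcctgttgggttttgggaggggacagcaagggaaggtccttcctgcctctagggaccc
Fcna (chr3:28847188-28847487, minus strand): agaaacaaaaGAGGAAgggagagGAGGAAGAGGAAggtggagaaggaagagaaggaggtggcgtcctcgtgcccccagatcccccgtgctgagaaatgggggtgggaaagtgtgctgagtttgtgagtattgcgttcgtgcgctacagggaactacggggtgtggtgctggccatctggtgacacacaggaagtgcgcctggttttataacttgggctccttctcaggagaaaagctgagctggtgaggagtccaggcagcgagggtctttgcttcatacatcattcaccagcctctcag
C4bpa (chr13:44663422-44663721, minus strand): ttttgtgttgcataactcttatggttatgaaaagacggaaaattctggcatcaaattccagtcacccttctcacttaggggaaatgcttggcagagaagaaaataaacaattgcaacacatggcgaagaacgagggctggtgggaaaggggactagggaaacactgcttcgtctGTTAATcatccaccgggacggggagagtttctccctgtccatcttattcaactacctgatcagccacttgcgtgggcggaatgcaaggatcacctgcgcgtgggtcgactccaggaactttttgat
C4bpb (chr13:44683732-44684031, minus strand): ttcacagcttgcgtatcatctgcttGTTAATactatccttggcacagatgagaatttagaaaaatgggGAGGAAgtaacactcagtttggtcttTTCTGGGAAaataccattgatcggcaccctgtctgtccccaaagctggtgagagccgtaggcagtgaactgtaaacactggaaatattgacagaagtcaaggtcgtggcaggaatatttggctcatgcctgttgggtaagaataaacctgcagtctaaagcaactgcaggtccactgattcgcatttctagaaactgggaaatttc
C5 (chr3:38759419-38759718, minus strand): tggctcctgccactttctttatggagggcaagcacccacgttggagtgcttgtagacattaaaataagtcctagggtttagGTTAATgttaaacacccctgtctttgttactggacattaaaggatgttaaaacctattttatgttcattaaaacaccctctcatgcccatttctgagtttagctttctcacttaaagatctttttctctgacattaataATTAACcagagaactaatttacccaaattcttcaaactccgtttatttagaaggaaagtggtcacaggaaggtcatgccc
Cfd (chr7:10465447-10465746, minus strand): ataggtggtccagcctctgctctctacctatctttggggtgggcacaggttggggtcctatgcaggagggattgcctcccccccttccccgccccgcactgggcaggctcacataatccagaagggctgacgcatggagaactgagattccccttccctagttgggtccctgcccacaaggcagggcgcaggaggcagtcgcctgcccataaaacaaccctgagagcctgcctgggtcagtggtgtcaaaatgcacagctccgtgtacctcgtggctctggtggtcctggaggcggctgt
The GTTAAT letters were present in 7 of the 18 promoters of hepatocyte-made members, among them C4bpa, C4bpb and C5, and in 0 of the 6 of macrophage-made members. Of all 33469 promoters in the table, 7.45% held them. The GAGGAA letters were present in 4 of 6 promoters of macrophage-made members and in 4 of 18 of hepatocyte-made members, with 27.6% of all promoters holding them. The TTCNNNGAA letters were present in 5 of the 28 promoters of members, C1qa (90 bases before the start), C4bpb (156 bases before it), C8a, Pros1 and Vtn, and 8.87% of all promoters held them. A longer motif, CAAAGTCCA (HNF4A), was found in 0 of the 28 promoters and in 0.391% of all. The motifs do not overlap in the windows shown, except that adjoining GAGGAA matches meet in Fcna, and a match describes the letters and not a bound site. In the gene order of GRCr8, C1qb, C1qc and C1qa follow each other with 0 genes between, and C4bpa and C4bpb have 1 gene between them.

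How hepatic expression differs with the drug was addressed by setting rosiglitazone livers against obese ones, within the limits of the labels given above. Rosiglitazone livers had higher expression of all 3 C1q chains, of ficolin A, of both chains of C4b-binding protein, of C5 and of factor D, by 1.51- to 1.92-fold. In all, 8 of 38 tested members were higher and 0 were lower (limma, Benjamini-Hochberg adjusted p under 0.05). Of all genes tested, 1.04% were higher and 0.454% lower. At an unadjusted p under 0.05 there were 14 of 38 members, beside 1153 of all 9481 genes tested. Macrophage-made members had a median log2 difference of 0.61 (4 of 6 called, 6 of 6 positive) and hepatocyte-made members one of 0.14 (3 of 24 called, 19 positive). The members of other or several sources had a median of 0.07 (1 of 8 called, 4 positive), against −0.0036 over all genes tested. In 13 members every rosiglitazone rat was above every obese rat, a pattern held by 2.23% of all genes tested. Beside the 8 called members these were Cfp, Cpb2, F10, F2 and Fgg.

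**Figure D1:**
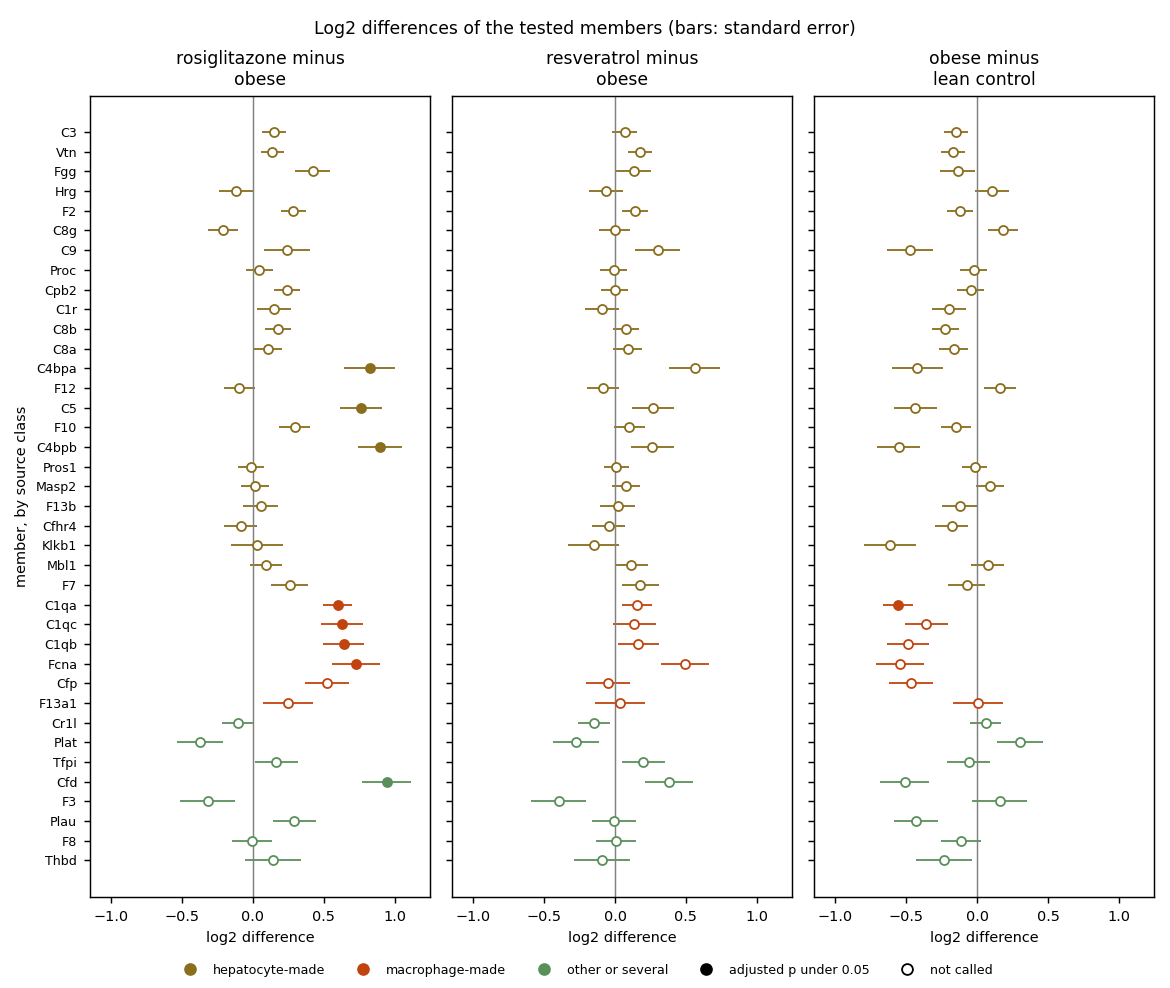
Log2 differences of the 38 tested members (points) with their standard errors (bars) for rosiglitazone minus obese, resveratrol minus obese and obese minus lean control, with members grouped and coloured by source class. Filled points had an adjusted p under 0.05: 8 in the left panel, 0 in the middle panel and 1 in the right panel.

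C1qa, the A chain of C1q, was 6.26, 6.24, 6.16, 6.20 and 6.33 in rosiglitazone livers, and 5.72, 5.58, 5.66, 5.91 and 6.10 in resveratrol livers. It was 5.51, 5.85, 5.61, 5.64 and 5.60 in obese livers, and 6.15, 6.37, 6.08, 6.15 and 6.24 in lean livers. Every rosiglitazone and every lean liver was above every obese liver, and the rosiglitazone and lean livers overlapped. The rosiglitazone minus obese difference was 0.60 (SE 0.10, limma adjusted p = 0.00364).

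C1qb, the B chain, was 5.78, 5.78, 5.65, 5.79 and 6.05 in rosiglitazone livers, and 5.33, 5.21, 5.22, 5.34 and 5.58 in resveratrol livers. It was 5.30, 5.05, 5.03, 5.02 and 5.46 in obese livers, and 5.77, 5.93, 5.92, 5.62 and 5.05 in lean livers. The lowest rosiglitazone liver was above the highest obese liver, while lean control rat 5 lay among the obese rats. Rosiglitazone livers exceeded obese livers by 0.64 (SE 0.15, limma adjusted p = 0.0290).

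C1qc, the C chain, was 5.99, 5.87, 5.80, 5.97 and 6.23 in rosiglitazone livers, and 5.32, 5.52, 5.46, 5.27 and 5.83 in resveratrol livers. It was 5.54, 5.29, 5.44, 5.19 and 5.27 in obese livers, and 5.58, 6.03, 5.66, 6.09 and 5.17 in lean livers. Rosiglitazone and obese livers did not overlap, and lean control rat 5 was below every obese rat. The rosiglitazone minus obese difference was 0.63 (SE 0.15, limma adjusted p = 0.0378). The chains thus differed by similar amounts, and in each of them rosiglitazone rat 5 and resveratrol rat 5 were the highest of their groups.

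Fcna, ficolin A, a lectin pathway recognition protein known from mice as a macrophage product, was 5.74, 5.49, 5.45, 6.03 and 5.72 in rosiglitazone livers, and 5.33, 5.44, 4.95, 5.75 and 5.80 in resveratrol livers. It was 5.17, 4.85, 5.07, 4.78 and 4.94 in obese livers, and 5.31, 5.40, 6.02, 5.65 and 5.16 in lean livers. Here 4 of the 5 resveratrol livers were also above every obese liver. The mean was higher with rosiglitazone than in obese livers by 0.73 (SE 0.17, limma adjusted p = 0.0310).

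Cfp, which encodes properdin, the stabiliser of the alternative pathway convertase, averaged 5.61 ± 0.20 in rosiglitazone livers and 5.09 ± 0.14 in obese livers (SD, n = 5 each). The groups did not overlap, but the difference of 0.52 (SE 0.16) did not pass (limma adjusted p = 0.107). F13a1, the A subunit of factor XIII, which cross-links fibrin, averaged 2.78 ± 0.28 in rosiglitazone livers and 2.53 ± 0.12 in obese livers, close to the array medians in both.

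**Figure D2:**
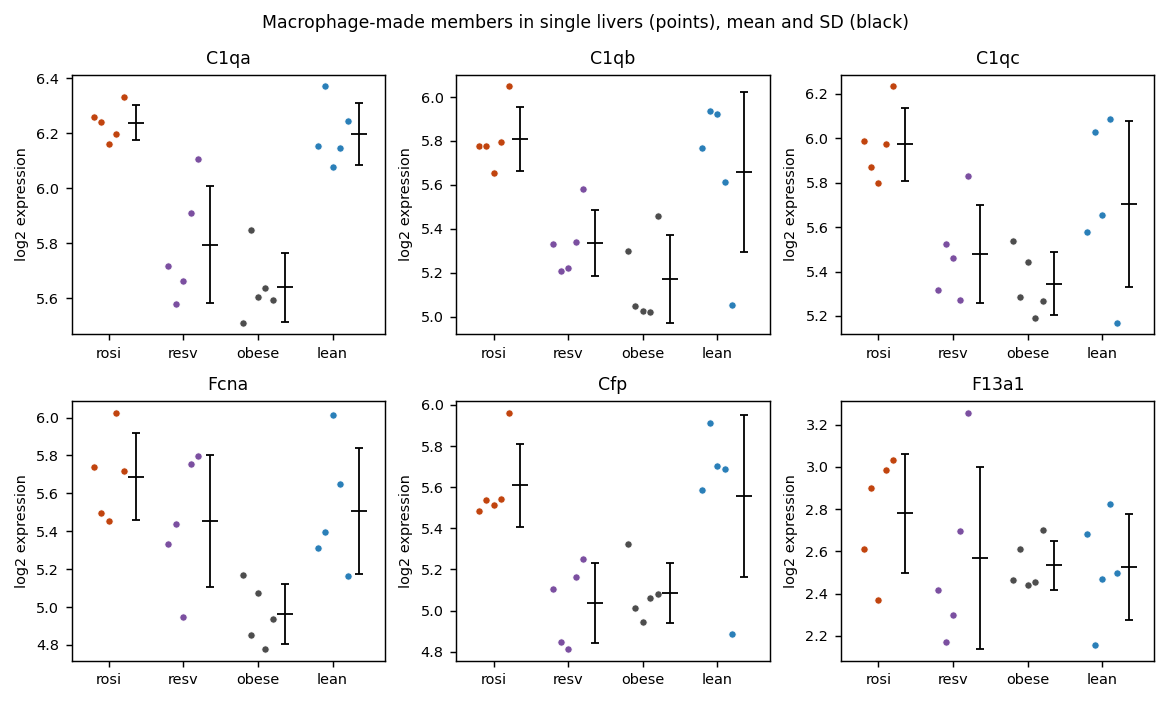
Log2 expression of 6 macrophage-made members in single livers (coloured points), with the mean and SD of each group of 5 rats (black), for rosiglitazone (rosi), resveratrol (resv), obese and lean control rats. For C1qa, C1qb, C1qc, Fcna and Cfp all 5 rosiglitazone points lie above all 5 obese points, and F13a1 lies between 2.16 and 3.26. The vertical axes do not start at 0.

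Most macrophage and Kupffer cell markers moved with these members. Of 19 such markers 15 were measured and 14 tested, and 8 of the 14 were higher in rosiglitazone than in obese livers with 0 lower, at a median difference of 0.68. The strongest by p were Cd5l (1.55), Vsig4 (1.27), Cd68 (0.88) and Fcer1g (0.70). Differences were positive in 12 of the 14 tested markers and negative in 2, with Cd14 the lowest at −0.11. Summed on the linear scale, the 15 markers came to 738 to 1034 in rosiglitazone livers, 523 to 611 in resveratrol livers, 494 to 629 in obese livers and 530 to 785 in lean livers. The 3 C1q chains came to 178 to 222 in rosiglitazone livers, 131 to 174 in resveratrol livers, 119 to 131 in obese livers and 145 to 209 in lean livers. Both sums separated rosiglitazone from obese livers without overlap. Among the markers only Timd4 averaged below the highest array median. The part of macrophage content in the C1q result was not tested, and in whole liver fewer cells of a type and less RNA per cell cannot be told apart. For comparison, 9 hepatocyte markers summed to 12690 to 13379 in rosiglitazone livers and 12340 to 13736 in obese livers, with 0 of 9 called.

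**Figure D3:**
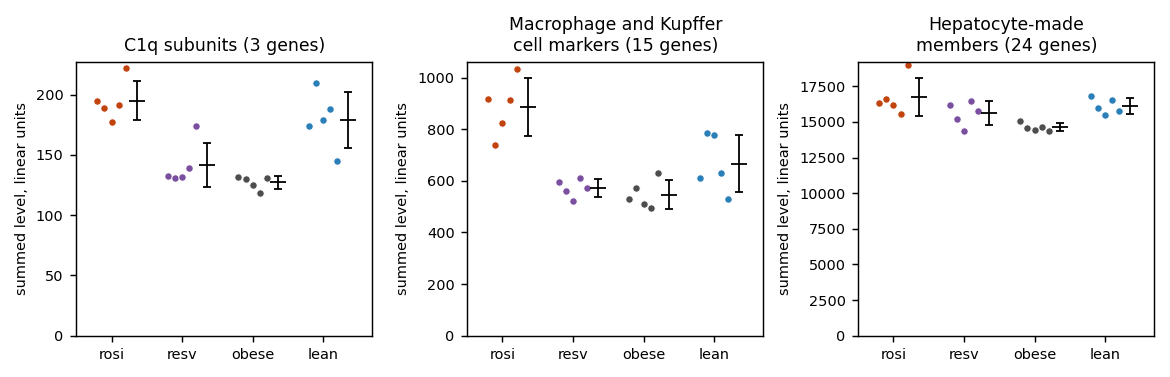
Summed linear expression of the 3 C1q chains (left), 15 macrophage and Kupffer cell markers (middle) and the 24 hepatocyte-made members (right) in single livers (points), with group mean and SD (black), for rosiglitazone, resveratrol, obese and lean control rats. In each panel the rosiglitazone points lie above all obese points, and the axes start at 0.

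Among hepatocyte-made members the called genes were a regulator with both its chains and C5. C4bpb, the beta chain of C4b-binding protein, which carries protein S, was 8.66, 8.84, 8.83, 8.43 and 9.04 in rosiglitazone livers, and 7.95, 8.16, 7.69, 8.51 and 8.32 in resveratrol livers. It was 7.76, 7.88, 7.83, 8.12 and 7.73 in obese livers, and 8.20, 8.60, 8.18, 8.74 and 8.38 in lean livers. Obese livers were the lowest group, with no overlap with rosiglitazone or with lean livers. Rosiglitazone livers exceeded obese livers by 0.90 (SE 0.15, limma adjusted p = 0.00274), or 1.86-fold.

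C4bpa, the alpha chain that binds C4b, was 9.25, 9.34, 9.33, 9.27 and 9.89 in rosiglitazone livers, and 9.42, 8.75, 8.75, 9.52 and 9.33 in resveratrol livers. It was 8.95, 8.36, 8.48, 8.49 and 8.66 in obese livers, and 9.50, 9.09, 8.67, 8.90 and 8.90 in lean livers. Rosiglitazone rat 5 stood above the other 4, which lay between 9.25 and 9.34 and still above every obese rat. The rosiglitazone minus obese difference was 0.82 (SE 0.18, limma adjusted p = 0.0217).

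C5, the precursor of the C5a peptide and of the pore-starting C5b, was 9.10, 9.06, 8.94, 8.89 and 9.43 in rosiglitazone livers, and 8.68, 8.41, 8.29, 8.80 and 8.77 in resveratrol livers. It was 8.50, 8.46, 8.14, 8.27 and 8.26 in obese livers, and 9.29, 8.63, 8.40, 8.71 and 8.77 in lean livers. Rosiglitazone livers were above every obese and every resveratrol liver. The rosiglitazone minus obese difference was 0.76 (SE 0.15, limma adjusted p = 0.00938), or 1.69-fold.

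C3, the hub on which all complement pathways meet, was not called. It was 11.34, 11.35, 11.24, 11.25 and 11.54 in rosiglitazone livers, and 11.32, 11.23, 11.13, 11.29 and 11.35 in resveratrol livers. It was 11.28, 11.16, 11.21, 11.18 and 11.16 in obese livers, and 11.39, 11.36, 11.25, 11.39 and 11.35 in lean livers. All groups overlapped, and the rosiglitazone minus obese difference was 0.15 with a 95% interval from −0.03 to 0.32 (limma adjusted p = 0.520).

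Cfd, which encodes factor D or adipsin, the alternative pathway protease that is best known from adipose tissue, had the highest fold change of the members at 1.92-fold. It was 4.04, 4.34, 4.27, 4.30 and 4.35 in rosiglitazone livers, and 3.81, 3.55, 3.43, 3.80 and 3.92 in resveratrol livers. It was 3.67, 3.02, 3.35, 3.25 and 3.31 in obese livers, and 3.39, 4.11, 3.77, 4.46 and 3.41 in lean livers. Rosiglitazone livers lay above every obese and every resveratrol liver. The lean livers ran from 3.39 to 4.46, and of the obese livers only the one at 3.67 lay within that range, with the others below it. Between rosiglitazone and obese livers the difference was 0.94 (SE 0.17, limma adjusted p = 0.00512). Of the adipocyte markers Adipoq, Plin1 and Lep, 2 were tested and 0 were called, with Lep below the array medians. Adipoq also lay close to them, at a mean of 2.82 in rosiglitazone livers and 2.55 in obese livers. The sum of these markers was 15.8 to 21.1 in rosiglitazone livers and 15.8 to 20.9 in obese livers, at levels where changes are compressed.

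The terminal components, which form the pore, gave 0 of 4 calls. C9 averaged 9.51 ± 0.30 in rosiglitazone livers and 9.27 ± 0.04 in obese livers, C8b averaged 9.24 ± 0.14 in rosiglitazone livers and 9.06 ± 0.09 in obese livers, and C8g averaged 9.47 ± 0.10 in rosiglitazone livers and 9.68 ± 0.17 in obese livers (SD, n = 5 each). The C8 chains, which act as 1 protein, thus had differences of either sign. The other initiators C1r, Masp2 and Mbl1, proteases and a lectin made by hepatocytes, had differences of 0.15, 0.01 and 0.09. The regulators Cfhr4 and Cr1l had differences of −0.08 and −0.11, and vitronectin (Vtn), which binds and blocks the pore, one of 0.14.

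In the coagulation arm 0 members passed. F2, which encodes prothrombin, was 9.90, 9.79, 9.78, 9.72 and 9.76 in rosiglitazone livers, and 9.71, 9.68, 9.58, 9.61 and 9.64 in resveratrol livers. It was 9.70, 9.50, 9.39, 9.44 and 9.48 in obese livers, and 9.40, 9.73, 9.68, 9.65 and 9.67 in lean livers. Rosiglitazone livers were above every obese liver, by a mean of 0.29 with a 95% interval from 0.10 to 0.47 (limma adjusted p = 0.132).

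Fgg, the gamma chain of fibrinogen, was 10.81, 10.83, 10.93, 10.78 and 11.38 in rosiglitazone livers, and 10.61, 10.51, 10.52, 11.02 and 10.62 in resveratrol livers. It was 10.47, 10.76, 10.50, 10.43 and 10.47 in obese livers, and 10.81, 10.63, 10.56, 10.74 and 10.58 in lean livers. The lowest rosiglitazone liver was just above the highest obese liver. The difference was 0.42 (95% interval from 0.17 to 0.68, limma adjusted p = 0.101).

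Factor X (F10) had a difference of 0.30 and factor VII (F7) one of 0.26, with limma adjusted p of 0.236 and 0.433. Tissue factor (F3), which starts clotting, had a difference of −0.32, and F12, the contact factor, one of −0.10. The anticoagulants gave 0 of 4 calls, with differences from −0.01 in Pros1 (protein S) to 0.16 in Tfpi. In fibrinolysis Plat, the tissue plasminogen activator, had a difference of −0.37 and Plau, the urokinase, one of 0.29, while Cpb2, which slows fibrin breakdown, had one of 0.24. Adjusted p of these 3 was 0.354, 0.465 and 0.272 (limma).

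**Figure D4:**
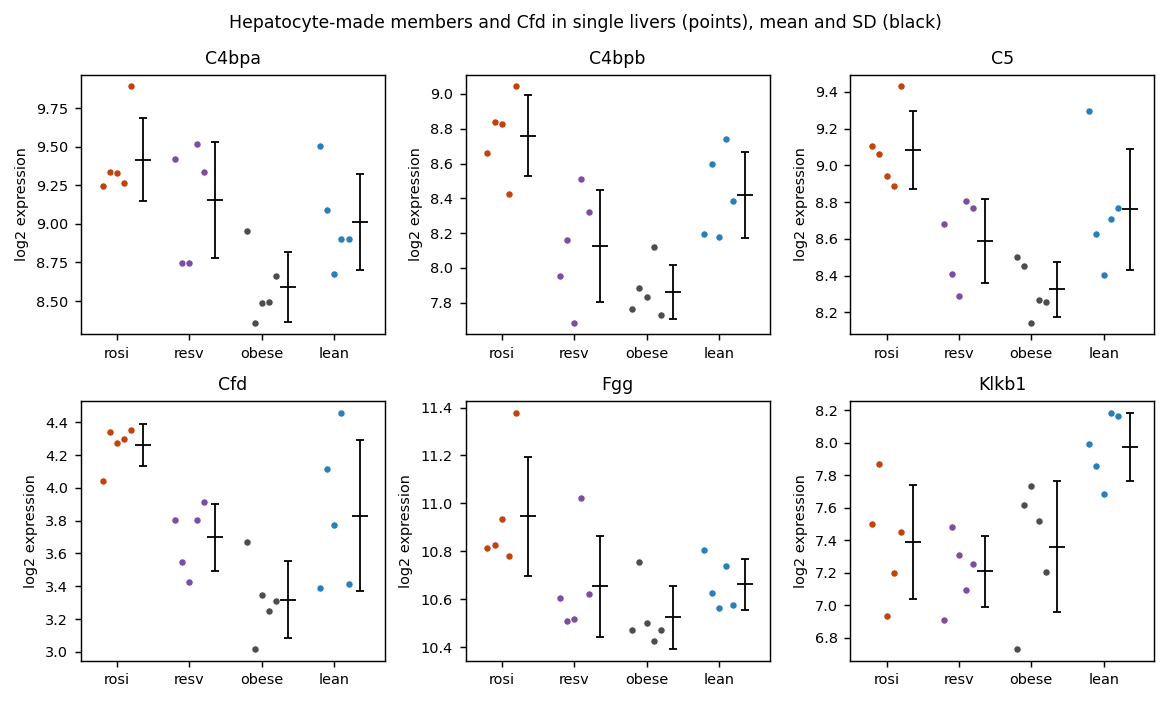
Log2 expression of C4bpa, C4bpb, C5, Fgg and Klkb1 (hepatocyte-made) and Cfd (other sources) in single livers (coloured points), with the mean and SD of each group of 5 rats (black), for rosiglitazone, resveratrol, obese and lean control rats. Rosiglitazone points lie above all obese points in every panel but Klkb1, in which the lean points lie between 7.68 and 8.18. The vertical axes do not start at 0.

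The count of 8 was lower with some arrays left out, as was the count over all genes. Leaving out rosiglitazone rat 5 or obese rat 2, 3 or 4 left 4 called members, and leaving out rosiglitazone rat 1 or 4 left 5. Over all genes tested, the higher calls were 62 without rosiglitazone rat 5, 64, 53 and 61 without obese rats 2, 3 and 4, and 63 and 57 without rosiglitazone rats 1 and 4, against 99 with all arrays. The differences of the members that lost the call stayed between 0.56 and 0.80. C1qa, C4bpb, C5 and Cfd were called under all 19 alternatives that were run on the comparison, and C1qb, C1qc, Fcna and C4bpa were not. In the pathway beyond the members, 2 of 6 other complement regulators and receptors were higher in rosiglitazone than in obese livers. They were Vsig4 (1.27), a macrophage receptor for C3 fragments that is also in the marker list, and the C3a receptor C3ar1 (0.75). Of 7 inhibitors, A2m, the alpha-2-macroglobulin known in rats as an acute phase protein, was higher at 6.31 ± 1.42 in rosiglitazone livers and 2.91 ± 0.54 in obese livers (SD, n = 5 each). Of 10 other initiators and cofactors, Fgl1 (1.46), a fibrinogen-like liver protein, and Vwf (0.68), the endothelial carrier of factor VIII, were higher. Of 4 transcription factors and cytokine receptors tested, Stat3 (0.85) was higher, and 0 of 3 cell receptors were called. These calls are limma calls at an adjusted p under 0.05, with 0 lower in each list.

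How the untreated obese rats differ from lean controls was addressed by setting obese livers against lean ones, with diet and body type not told apart. C1qa was lower in obese livers by 0.56 (SE 0.10, limma adjusted p = 0.0133), or 1.47-fold. It was the only called member. Of 38 members 1 was lower and 0 were higher, while 1.13% of all genes tested were lower and 0.686% higher. At an unadjusted p under 0.05 there were 13 of 38 members, beside 1646 of all 9481 genes tested. Macrophage-made members had a median difference of −0.48 (5 of 6 negative), hepatocyte-made members one of −0.14 (19 of 24 negative) and the others one of −0.09 (5 of 8 negative), against 0.0032 over all genes tested.

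C1qb (−0.49), Fcna (−0.55), Cfp (−0.47) and C1qc (−0.36) had negative differences with limma adjusted p of 0.0789, 0.0895, 0.110 and 0.211. Among hepatocyte-made members Klkb1 (−0.61), C4bpb (−0.55), C9 (−0.47) and C5 (−0.44) had adjusted p of 0.0780, 0.0612, 0.119 and 0.120. In 5 members (C1qa, C4bpb, C9, Plau and Vtn) every obese rat was below every lean rat, a pattern held by 2.0% of all genes tested. The 2 macrophage markers that passed were Fcer1g (−0.54) and Cd5l (−0.79), both lower, of 14 tested with a median of −0.51. Of the 14, 12 had negative and 2 positive differences, with Cd14 the highest at 0.51. The part of the markers in the C1qa result was not tested. Of other pathway genes C3ar1 was lower in obese livers by 0.84 (limma adjusted p = 0.0220).

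Endothelial cells are a known source of F8, Thbd, Tfpi and Plat. Of 7 endothelial markers tested, 2 were lower in obese livers (Lyve1 and Cdh5), and their sum was 217 to 271 in obese livers, against 317 to 381 in lean livers. The members had differences of −0.12 (F8), −0.23 (Thbd), −0.06 (Tfpi) and 0.30 (Plat), and 0 of these 4 were called. F8 and Thbd lay near the array medians.

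Leaving out lean control rat 3 gave more calls in general, with 284 genes higher and 233 lower over all genes tested, against 65 and 107 with all arrays. Without it 4 members were called (C1qa, C4bpb, C5 and Klkb1), and without lean control rat 5 there were 3 (C1qa, C1qb and Cfp), beside 36 genes higher and 98 lower over all genes. With only the obese and lean rats in the fit, the adjusted p of C1qa was 0.0511 and 0 members were called.

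Between resveratrol and obese livers 0 of 38 members passed the test. At an unadjusted p under 0.05 (limma) there were 4 of 38 members, beside 505 of all 9481 genes tested. Of all genes tested, 0.0105% were higher and 0.0% lower in this comparison. C4bpa had the highest difference, 0.56 (95% interval from 0.19 to 0.94), followed by Fcna at 0.49 (0.14 to 0.84) and Cfd at 0.38 (0.03 to 0.74), with limma adjusted p of 0.737, 0.737 and 0.924. F3 had the lowest, −0.40 (−0.81 to 0.01). The C1q chains had differences of 0.16 (C1qa), 0.17 (C1qb) and 0.14 (C1qc), and the interval of C1qa ran from −0.06 to 0.37. Macrophage-made members had a median of 0.15 and hepatocyte-made members one of 0.08. Of 14 macrophage markers 0 were called, with a median of 0.09.

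Set directly against each other, rosiglitazone and resveratrol livers differed in 2 members, both higher with rosiglitazone. C1qa differed by 0.44 (SE 0.10, limma adjusted p = 0.0421) and C4bpb by 0.63 (SE 0.15, limma adjusted p = 0.0485). The count of 2 stood beside 0.517% of all genes higher and 0.369% lower. At an unadjusted p under 0.05 there were 9 of 38 members, beside 1132 of all 9481 genes tested. Macrophage-made members had a median of 0.46, with 6 of 6 positive, and hepatocyte-made members one of 0.07. Cfp (0.57), Cfd (0.56), C5 (0.50), C1qc (0.49) and C1qb (0.47) had limma adjusted p from 0.0893 to 0.147. In 8 members, C1qa, C1qb, C1r, C5, Cfd, Cfp, Cpb2 and F2, every rosiglitazone rat was above every resveratrol rat, which held for 1.67% of all genes tested. Most macrophage markers moved here as well, with 7 of 14 higher and a median of 0.67. Differences were positive in 12 of the 14 and negative in 2, with Lyz2 the lowest at −0.09. The part of the markers was not tested. Neither call held when any of rosiglitazone rats 1, 2, 3 and 5 or resveratrol rats 1, 2 and 3 was left out, and these gave 0 called members, with 23 to 45 genes higher over all genes tested against 49 with all arrays. Both calls were also lost without the filter on low values, with arrays centred on their medians and with only these 2 groups in the fit.

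Between rosiglitazone and lean livers 0 members passed the test, while 1.01% of all genes were higher and 1.4% lower. At an unadjusted p under 0.05 (limma) there were 8 of 38 members, beside 1465 of all 9481 genes tested. C1qa differed by 0.04 with a 95% interval from −0.18 to 0.26. Macrophage-made members had a median of 0.17, with 6 of 6 positive, and hepatocyte-made members one of 0.01. Of 14 tested macrophage markers 2 were higher in rosiglitazone than in lean livers and 0 were lower, at a median of 0.24. Their differences were positive in 12 and negative in 2. Without rosiglitazone rat 2, 1 member, Klkb1, was called. Resveratrol livers differed from lean livers in 2 members, both lower, beside 2.33% of all genes lower and 2.4% higher. C1qa was lower by 0.40 (SE 0.10, limma adjusted p = 0.0315) and Klkb1 by 0.77 (SE 0.18, limma adjusted p = 0.0204). Both calls were lost with lean control rat 4 or 5 or resveratrol rat 1 left out. Then 0 members were called without lean control rat 4 or resveratrol rat 1, and C1qb and Cfp were called without lean control rat 5. With lean control rat 1 or 2 or resveratrol rat 2 or 3 left out, Klkb1 alone was called. Over all genes the lower calls in these fits were 102 to 164, against 221 with all arrays. With all arrays, 4 of 14 tested macrophage markers were lower in resveratrol than in lean livers and 0 were higher, at a median of −0.37. Of the 14, 11 had negative and 3 positive differences, with Cd14 the highest at 0.46. The part of the markers in this C1qa result was not tested.

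Klkb1, the plasma prekallikrein that cleaves kininogen, was called in 1 of the 6 comparisons. It was 7.50, 7.87, 6.94, 7.20 and 7.45 in rosiglitazone livers, and 6.91, 7.48, 7.31, 7.09 and 7.25 in resveratrol livers. It was 6.73, 7.61, 7.74, 7.52 and 7.20 in obese livers, and 7.99, 7.86, 7.68, 8.18 and 8.16 in lean livers. Resveratrol livers lay below every lean liver, and rosiglitazone and obese livers each overlapped the lean range by 1 rat. Its rosiglitazone minus obese difference was 0.03 with a 95% interval from −0.35 to 0.41. Of the other contact system members, F12, the Hageman factor, averaged 8.80 ± 0.08 in rosiglitazone livers, 8.81 ± 0.09 in resveratrol livers, 8.89 ± 0.04 in obese livers and 8.73 ± 0.29 in lean livers (SD, n = 5 each). Hrg, a histidine-rich glycoprotein, lay between 9.97 and 10.09 in the group means.

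Some rats held the extreme value of their group for many members. Rosiglitazone rat 5 was the highest for 12 and the lowest for 4 of 24 hepatocyte-made members, and the highest for 5 of 6 macrophage-made members. Resveratrol rat 5 was the highest for 6 of 6 macrophage-made members but for 3 of 24 hepatocyte-made ones. Lean control rat 1 was the highest for 10 and the lowest for 6 of the 24 hepatocyte-made members, lean control rat 3 was the lowest for 13 and the highest for 3, and lean control rat 5 was the lowest for 4 of 6 macrophage-made members. Among obese rats none was the highest for more than 7 of the 24. The comparisons with obese livers share the same 5 obese rats, so their values are not independent.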

How the data were processed

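The authors deposited log2 expression values of 36685 probe sets, made with RMA, which corrects background, quantile normalises the arrays and summarises probes. Changes of dim genes are compressed. The sources used here name neither the RMA version nor a genome build. Of these probe sets 14824 carried 1 gene symbol in the platform annotation, 829 several (not used) and 21032 were unnamed here. For the 234 genes with several probe sets the one with the highest mean stood for the gene. No member had more than 1. Genes above the array's percentile 50 in at least 5 arrays were tested (9481 of 14557). The tests came from limma 3.58.1 (R 4.3.3), all 20 arrays in a single fit, two-sided, with Benjamini-Hochberg adjustment over the genes tested (16 residual and 5.40 prior degrees of freedom). The number of arrays limits the precision. The fit was tested on simulated data. Values of every rat are given for members called in any comparison and for C1q, fibrinogen, C3 and F2, and up to 3 members of each functional group and 4 genes of each other list were named by smallest p. Members, source classes and lists were chosen with earlier results of these data known. Promoters are from RefSeq, GRCr8. Alternatives covered filters, centring, repeated quantile normalisation, the groups in the fit, a variance trend, array weights, a replicate block, the mean of probe sets and leaving out each array.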

Additional observations from a re-analysis of the deposited data

Results flagged for a closer look

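In 15 of 152 sets of 5 rats of a group, over the 38 tested members, the highest or lowest rat stood apart from the others by Dixon's 95% criterion, which chance alone meets in about 1 set in 20. Rosiglitazone rat 5 stood high for C4bpa (9.89), Cfp (5.96), F10 (9.05) and Fgg (11.38), and low for F7 (6.51). Rosiglitazone rat 1 stood low for Cfd (4.04). Lean control rat 1 stood high for C9 (10.30) and low for F10 (8.23), F12 (8.23) and F2 (9.40), and lean control rat 2 stood high for F7 (7.0). Fgg was also high in resveratrol rat 4 (11.02) and in obese rat 2 (10.76). Plau, the urokinase gene, was low in resveratrol rat 2 (3.12) and in obese rat 4 (2.99). All values are log2 expression.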

How the results depend on the processing

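No log2 difference of a called member changed sign, and the class medians moved by less than the spread between replicates, under the alternatives run. With 1 member called for obese against lean livers, there were 3 with the filter at percentile 75, 2 with quantile normalisation repeated, 0 with only those groups in the fit, 2 with a variance trend, 3 with array weights, and 1 to 4 with single arrays left out. With 8 for rosiglitazone against obese livers there were 4 to 8 with arrays left out, and C1qc also lost its call without a filter (adjusted p = 0.0534) and with centred arrays (0.0555). With 2 for rosiglitazone against resveratrol livers there were 0 without a filter, 0 with centred arrays, 0 with only those groups, and 0 to 1 with arrays left out. With 0 for rosiglitazone against lean livers there were 0 to 1 with arrays left out. With 2 for resveratrol against lean livers there were 1 without a filter, 1 with centred arrays, 1 with only those groups, and 0 to 3 with arrays left out. For resveratrol against obese livers there were 0 under every alternative. The cause of these shifts was not tested, except that fewer or more genes tested change the adjustment. Deviations of same-numbered rats correlated at a mean of −0.020 over 30 pairs (range −0.25 to 0.25), and those of different-numbered rats at 0.0050 over 120 pairs. These means give no sign that the numbers pair the rats, but whether they mark a shared batch was not tested. With the number as a block, the replicate block left 5 members called for rosiglitazone against obese livers and 1 for rosiglitazone against resveratrol livers.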
